A study of Mus musculus with 46 samples.

Results

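The 89 genes described here cover subunits of the 5 oxidative phosphorylation complexes, a few paralogs, 6 complex I assembly factors, and Atp5s and Atp5sl. They were chosen by symbol alone: every row of the expression table starting with Ndufa, Ndufb, Ndufc, Ndufs, Ndufv, Uqcr, Cox4i, Cox5, Cox6, Cox7, Cox8 or Atp5, plus Sdha, Sdhb, Sdhc and Sdhd. This gave 91 of 23335 rows, of which 89 had a total of at least 50 counts over all cells. Cox8c had 0 counts and Ndufa4l2, a paralog of Ndufa4, had 18, and both were set aside. The members fell into 36 complex I subunits, 6 complex I assembly factors (Ndufaf1 to Ndufaf6), 4 complex II subunits, 8 complex III subunits, 18 complex IV genes with Ndufa4 counted among them, 15 complex V genes, and the pair Atp5s and Atp5sl. That pair is also named Dmac2l and Dmac2 and was not counted among the assembly factors.

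Oxidative phosphorylation takes place at the inner mitochondrial membrane. Complexes I and II pass electrons from NADH and succinate to ubiquinone, complex III passes them to cytochrome c and complex IV to oxygen, and complex V uses the resulting proton gradient to make ATP. Most subunits have a single nuclear gene, but several complex IV subunits have another isoform best known from heart and skeletal muscle, among them Cox6a2, Cox7a1 and Cox8b. Fast-spiking interneurons, which include parvalbumin basket and chandelier cells, are known for high firing rates and dense mitochondria.

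The study profiled 584 single GABAergic neurons of the mouse cortex in 46 pooled libraries from 7 genetically marked types. Parvalbumin (PV) basket cells (127 cells, 16 libraries) came from Pv-iresCre; Ai14 mice of both sexes at postnatal days 58 to 83, from all layers. Upper chandelier cells (80 cells, 5 libraries; Nkx2.1-CreER; Ai14, with 1 library labelled Ai15; females, days 40 to 58) came from the border of layers 1 and 2/3 of infralimbic and prelimbic cortex, and deep chandelier cells (52 cells, 4 libraries; Nkx2.1-CreER; Ai14; males, day 34) from layers 5 and 6. Long-projecting cells (136 cells, 9 libraries; Sst-Flp; Nos1-Cre; Ai65; males, days 28 to 29) came from frontal cortex. Cholecystokinin (CCK) basket cells (64 cells, 4 libraries; Vip-Flp; CCK-Cre; Ai65; males, days 39 to 40) came from layers 2 and 3. Martinotti cells (62 cells, 4 libraries; Sst-Flp; CR-Cre; Ai65; females, day 35) and interneuron-selective cells (63 cells, 4 libraries; Vip-Flp; CR-Cre; Ai65; females, day 32) came from layer 2/3. All groups shared a wild-type background apart from driver and reporter alleles. The labels of every sample carry the tamoxifen step that CreER lines need, 150 µl at 20 mg/ml during embryonic life. Age, sex, driver line and, except in the pairs named below, sequencing flow cell mostly followed the type and cannot be told apart from it. Both chandelier types shared a driver line but differed in sex, age and flow cell. The labels name 18 animals, while the design text of the series speaks of 4. If fewer animals gave the cells, replicates of a type may share an animal, and the p-values would then rest on fewer independent samples than counted here. Libraries labelled as upper chandelier animal 14 carry 2 ages, day 58 for 1 library and day 40 for the other 2, and may hold more than 1 animal; they were summed as labelled. Library pairs shared by PV basket animals 7 and 8, and by 9 and 10, differed by little more than sampling noise, so each pair of animals counts as 1 replicate. This leaves 16 replicates: 4 of long-projecting cells and 2 of each other type. Both libraries of such a PV basket pair carry the same library index on neighbouring lanes, so the 127 PV basket cells may not all be distinct. Cells of a library were nearly alike in profile and are not counted as replicates.

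Depth and identity were checked first. Total counts per cell had a median of 98298 (8574 to 707657), with the lowest type median in interneuron-selective cells, at 42258. Genes behind the drivers were looked at in each type. Pvalb averaged 1023 CPM (counts scaled to the same total in every replicate) in PV basket cells, Vip 4275 in CCK basket and 2518 in interneuron-selective cells, Sst 2283 in long-projecting and 1523 in Martinotti cells, and Nos1 141 in long-projecting cells. Calb2, the calretinin gene behind CR-Cre, averaged 438 CPM in interneuron-selective cells and 103 in Martinotti cells, where it was below long-projecting cells at 185 CPM. Cck averaged 1963 CPM in CCK basket cells. Nkx2-1, whose driver acted in the embryo, had 73.4 and 79.4 CPM in upper chandelier cells but 15.5 and 43.4 CPM in deep chandelier cells, overlapping PV basket cells (17.4 and 23.7) and interneuron-selective cells (10.0 and 25.8). Vip also stood at 741 CPM in 1 of the 2 deep chandelier replicates and at 109 CPM in 1 of the 2 upper chandelier replicates, and at 0 in the other of each. Summed oligodendrocyte markers (8 genes) reached 3748 CPM in interneuron-selective library 3 (animal 4) and 4882 CPM in long-projecting library 2 (animal 15), against type medians over libraries of at most 129 CPM. Deep chandelier animal 11 stood apart from every other replicate in the balance of short against long transcripts, as described below. Values are CPM of summed counts per replicate, so they give a gene's share of a type's RNA, and fewer transcripts of a gene per cell cannot be told apart from more of other RNA. CPM was not divided by length, so levels are compared across types for a gene and never between genes.

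Of all members, Cox6a2, an isoform gene of complex IV, had the smallest p for any difference between types (edgeR adjusted p = 7.79e-05). The promoter table covered 75 of the 89 members, 3 of them under another symbol. It did not cover Cox6a2, whose promoter is not shown. Promoters of 3 other isoform genes of complex IV are shown, as the 250 bases before the annotated start in RefSeq (build GRCm38.p6). Cox6a1, the ubiquitous isoform of subunit VIa, lies at chr5:115348959-115349208 on the minus strand, Cox8b, the muscle isoform of subunit VIII, at chr7:140900447-140900696 on the minus strand, and Cox7a1, the muscle isoform of subunit VIIa, at chr7:30183921-30184170 on the plus strand. Capitals mark matches, on either strand, to the motifs of NRF1 (GCGCA, 1 base of any kind, then GCGC), ETS factors (CCGGAAG), ERR receptors (AAGGTCA) or MEF2 (CTA, 4 bases of any kind, then TAG).
Cox6a1: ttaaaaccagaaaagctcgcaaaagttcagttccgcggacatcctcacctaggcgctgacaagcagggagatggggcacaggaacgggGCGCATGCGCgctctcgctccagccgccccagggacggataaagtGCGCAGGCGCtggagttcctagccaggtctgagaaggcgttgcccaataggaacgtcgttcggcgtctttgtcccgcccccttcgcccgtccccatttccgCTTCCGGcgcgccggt
Cox8b: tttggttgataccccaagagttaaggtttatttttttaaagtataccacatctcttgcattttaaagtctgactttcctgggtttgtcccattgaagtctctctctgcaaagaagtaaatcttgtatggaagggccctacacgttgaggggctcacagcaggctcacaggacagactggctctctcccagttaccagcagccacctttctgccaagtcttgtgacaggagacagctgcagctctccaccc
Cox7a1: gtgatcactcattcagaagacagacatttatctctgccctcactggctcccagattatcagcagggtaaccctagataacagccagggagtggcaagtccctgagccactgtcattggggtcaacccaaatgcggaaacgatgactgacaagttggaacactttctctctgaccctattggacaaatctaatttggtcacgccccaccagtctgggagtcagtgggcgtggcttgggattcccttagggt
In Cox6a1, matches to the NRF1 letters lie at bases -162 to -153, where they read the same on both strands, and at -117 to -108 on the plus strand, with an ETS match at -16 to -10 on the minus strand. Neither Cox8b nor Cox7a1 held a match to any of the 4 motifs in this window. GC content was 62.8% in Cox6a1, 47.2% in Cox8b and 51.2% in Cox7a1. Across members, 13 of 75 promoters (17.3%) held the NRF1 letters, against 3.86% of all 27025 promoters in the table. The ETS letters were in 12 members (16%), against 7.05% of all promoters, the ERR letters in 5 (6.67%, against 4.05%) and the MEF2 letters in 1 (1.33%, against 3.23%). Median GC content was 56.4% over the member promoters and 52% over all promoters, and its part in these shares was not tested. The motifs were searched separately, none of their matches overlapped in the promoters shown, and a match is a description of the letters only.

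The summed level of all 89 members was highest in PV basket cells and lowest in interneuron-selective cells. It was 39480 and 37176 CPM in the PV basket replicates, or 3.83% of all counts. Upper chandelier cells followed with 32876 ± 393 CPM (SD, n = 2) and long-projecting cells with 30691 ± 1416 CPM (n = 4; 29361 to 32618). The other 4 types lay lower: CCK basket cells at 23928 ± 3081 CPM, Martinotti cells at 22527 ± 1266 CPM, deep chandelier cells at 21257 ± 2980 CPM and interneuron-selective cells at 19601 ± 363 CPM (SD, n = 2 each). The PV basket replicates did not overlap those of any other type, and interneuron-selective replicates reached 19858 CPM, overlapping only deep chandelier cells, whose lower replicate had 19150 CPM. Neighbours in the order from CCK basket to deep chandelier cells overlapped, as did the upper chandelier (32598 and 33154 CPM) and long-projecting ranges.

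**Figure D1:**
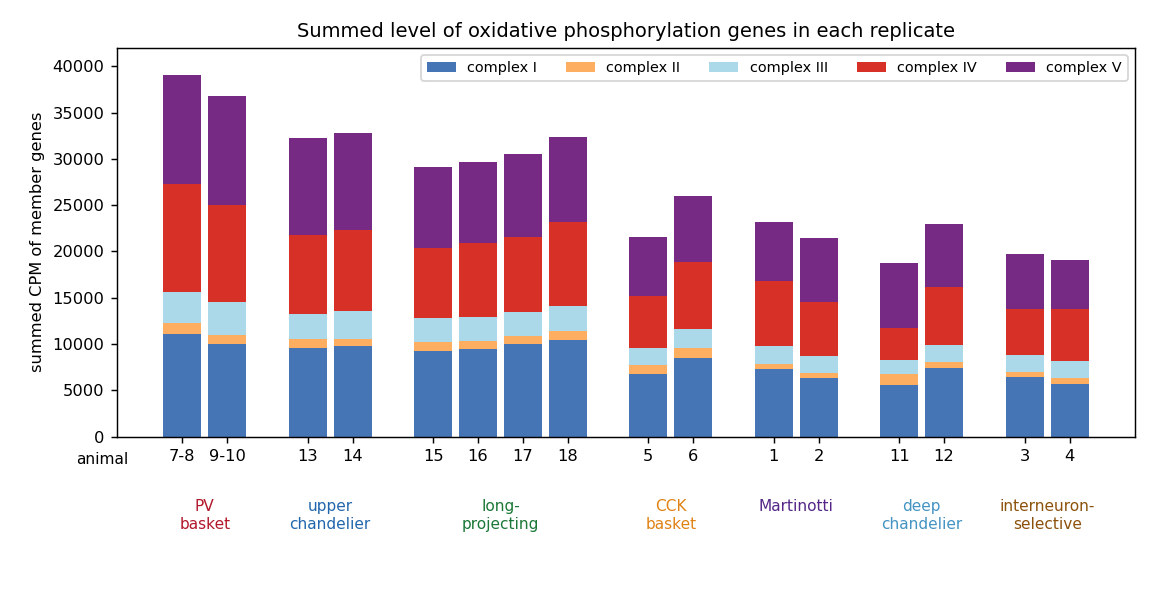
Summed CPM of the member genes in each of the 16 replicates (bars, by type, with the animal numbers below), stacked by complex; assembly factors and the pair Atp5s and Atp5sl are not drawn. The 2 PV basket bars are the tallest and the interneuron-selective bars and the bar of deep chandelier animal 11 are the shortest.

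The order of types was not the same for each complex. In PV basket cells the summed CPM was 1.67 times the mean of the other 6 types for complex IV (11077 ± 810 against 6639 CPM), 1.64 times for complex III (3518 ± 159 against 2141), 1.55 times for complex V (11735 ± 72.1 against 7560), 1.36 times for complex I (10507 ± 780 against 7741) and 1.33 times for complex II (1072 ± 131 against 805 CPM). Deep chandelier cells were low in complex IV, at 0.635 times the mean of the other 6, complex III (0.671), complex I (0.768) and complex V (0.824). For complex II, whose subunits also serve the citric acid cycle, deep chandelier cells were at 1.20 times the others, with replicates far apart at 1267 and 695 CPM. Interneuron-selective cells were below the mean of the others in all 5 complexes, from 0.658 times for complex V to 0.763 times for complex III. Martinotti cells had the lowest complex II sum, 521 ± 5.13 CPM, at 0.581 times the others.

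Counted gene by gene, 39 of the 89 members had their highest mean CPM in PV basket cells, 18 in upper chandelier, 15 in long-projecting, 9 in deep chandelier, 5 in CCK basket, 3 in Martinotti and 0 in interneuron-selective cells. The lowest mean was in deep chandelier cells for 39 members, in interneuron-selective cells for 25, in Martinotti cells for 14, in CCK basket cells for 7, in PV basket and upper chandelier cells for 2 each, and in long-projecting cells for 0. The same orders were not counted over all genes, so these counts are not read as a trait of the members.

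Tests across all genes used the quasi-likelihood test of edgeR on replicate sums, with Benjamini-Hochberg adjustment over 15533 genes and an adjusted p under 0.05 as the threshold for a call. Of the members, 88 entered; Cox6b2, the testis isoform of subunit VIb, was too low. Any difference between the 7 types was called for 47 of 88 members, 53.4%, against 25% of all genes tested. By class the calls were 11 of 15 for complex V, 5 of 8 for complex III, 10 of 17 for complex IV, 19 of 36 for complex I and 2 of 4 for complex II. No assembly factor was called (0 of 6 by edgeR, with 1 at an unadjusted p under 0.05), nor was Atp5s or Atp5sl (0 of 2, with 1 at an unadjusted p under 0.05). The call count over all members was 59 with DESeq2 and 38 with limma's voom. It was 27 without PV basket animals 7 and 8 and 31 without animals 9 and 10.

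Each type was then set against the mean of the other 6, a mean taken on the log scale, so that the 7 comparisons share their samples and are not independent. Long-projecting cells, with 4 replicates against 2 in each other type, had 23 members called higher, 26.1%, against 9.71% of all genes. Genes with short transcripts as a whole were also higher in that type, with values given below. PV basket cells had 14 higher (15.9%, against 2.78% of all genes), and upper chandelier cells 4 (4.55%, against 1.56%). None was called lower by edgeR in these 3 types, against 3.4% of all genes in long-projecting, 1.11% in PV basket and 0.341% in upper chandelier cells. At an unadjusted p under 0.05 edgeR had 1 lower member, in upper chandelier cells. DESeq2 called 1 lower, in long-projecting cells, and voom 1 each in long-projecting and PV basket cells. Interneuron-selective cells had 20 members lower (22.7%, against 4.29% of all genes) and 0 higher, where 5.73% of all genes were higher; no member was higher there at an unadjusted p under 0.05, by DESeq2 or by voom.

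Deep chandelier cells had calls in both directions. Of the 88 members, 24 were lower (27.3%, against 6.79% of all genes) and 11 higher (12.5%, against 12.3% of all genes, a share at the background). With the size factors of DESeq2 in the same fit the split was 16 higher and 21 lower. Without deep chandelier animal 11 the number of called members was 21 in place of 35, and voom with a spread per type called 4, all higher. CCK basket cells had 3 members higher (3.41%, against 5.22%) and 1 lower (1.14%, against 1.08%). Martinotti cells had 3 lower (3.41%, against 1.69%) and 0 higher (against 3.91%), where edgeR gave 3 higher members at an unadjusted p under 0.05 and DESeq2 and voom gave 0. The CCK basket and Martinotti counts are of 3 members or fewer and lie near the background of all genes.

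**Figure D2:**
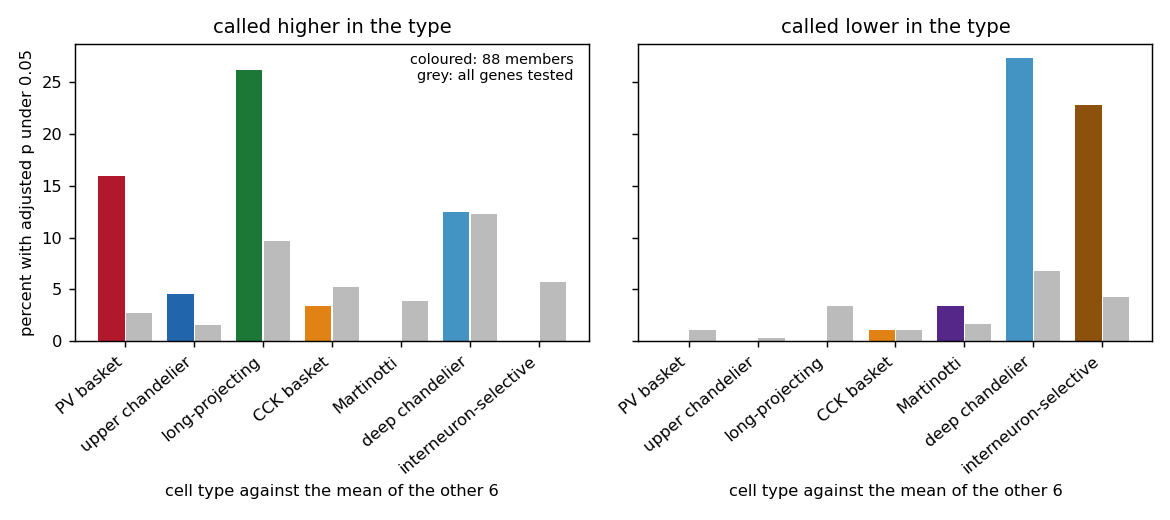
Percent of the 88 tested members (coloured bars) and of all 15533 genes (grey bars) with an edgeR adjusted p under 0.05, higher (left) or lower (right) in each type against the mean of the other 6. The member bars exceed the grey ones most for long-projecting and PV basket cells on the left and for deep chandelier and interneuron-selective cells on the right.

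Fitted values of all tested members, called or not, were as follows. The median log2 fold change of the 88 members was 0.56 in PV basket cells (0.09 over all genes), 0.48 in long-projecting cells (0.10), 0.33 in upper chandelier cells (0.05), -0.07 in CCK basket cells (0.04), -0.29 in Martinotti cells (0.01), -0.36 in deep chandelier cells (-0.08) and -0.55 in interneuron-selective cells (-0.03). The fitted value was above 0 for 76 of 88 members in PV basket cells, 76 in long-projecting cells, 74 in upper chandelier cells, 37 in CCK basket cells, 33 in deep chandelier cells, 22 in Martinotti cells and 4 in interneuron-selective cells. The counts of calls rested on few replicates. The counts that follow show this dependence only, since the share of all genes called in each refit is not given beside them. PV basket cells had 1 call without animals 7 and 8, 2 without animals 9 and 10, 9 without any one of animals 13, 14, 15, 16 or 17, 23 without deep chandelier animal 11 and 27 without animal 12. Interneuron-selective cells had 9 without animal 3 and 8 without animal 4. Long-projecting cells had 15, 11, 14 and 12 without animals 15, 16, 17 and 18, 15 without PV basket animals 7 and 8, 14 without animals 9 and 10, and 38 without deep chandelier animal 12. Upper chandelier cells had 1 without animal 13, 14, 15, 16 or 17 or either PV basket replicate, 2 without animal 18 and 8 without deep chandelier animal 12. CCK basket cells had 1 without animal 6, 2 without PV basket animals 7 and 8, and 9 and 10 without deep chandelier animals 11 and 12. Martinotti cells had 8 without animal 1, 0 without animal 2, and 5 and 8 without deep chandelier animals 11 and 12. With interneuron-selective library 3 left out, the library with the high oligodendrocyte markers, 21 members were called in interneuron-selective cells in place of 20, and 1 in upper chandelier cells in place of 4.

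**Figure D3:**
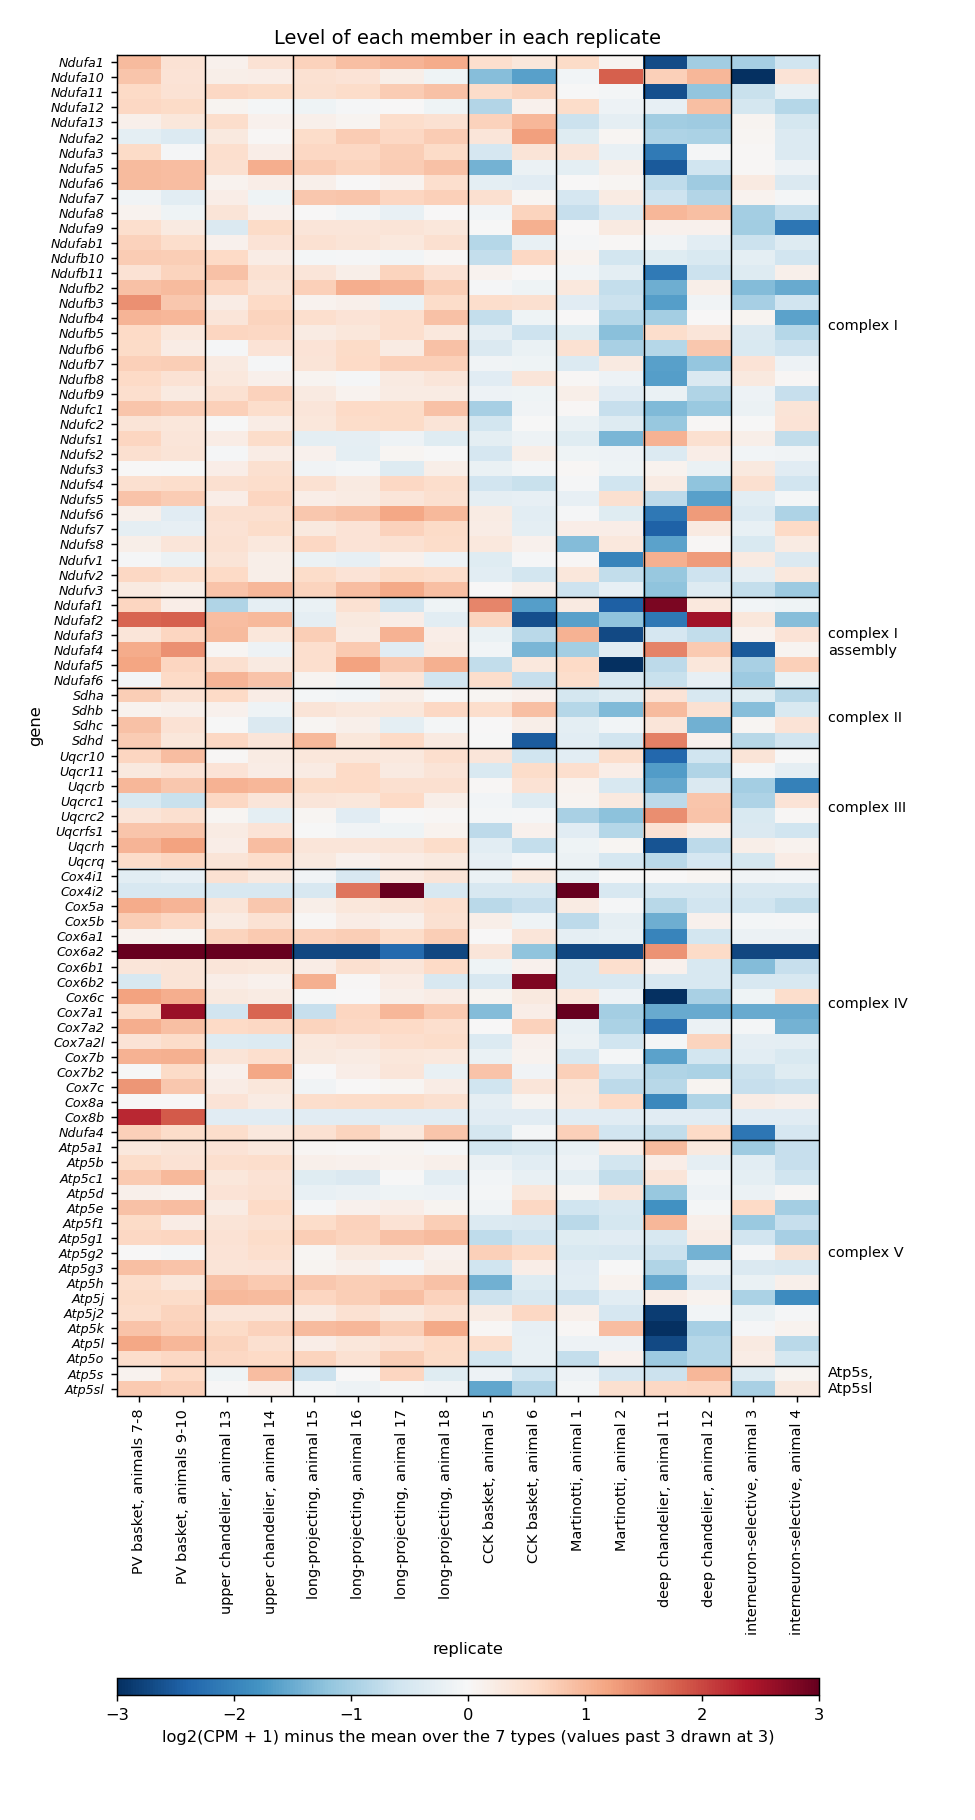
Level of each of the 89 members (rows, grouped by complex) in each of the 16 replicates (columns, grouped by type), as log2(CPM + 1) minus the mean over the 7 types, with red above and blue below that mean and values past 3 drawn at 3. Most rows are red in the PV basket, upper chandelier and long-projecting columns and blue in the interneuron-selective columns; the column of deep chandelier animal 11 holds both dark blue and dark red rows.

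Among complex I subunits, the calls in deep chandelier and interneuron-selective cells were the largest. Ndufv1, the flavoprotein subunit that takes electrons from NADH, had 760.0 and 871 CPM in deep chandelier cells, above every replicate of the other types, of which the highest was 474 CPM in upper chandelier cells (log2 fold change 1.55, SE 0.31, edgeR adjusted p = 0.00386). This call held when each replicate was left out in turn and by voom. Ndufa8, an accessory subunit on the intermembrane side, was likewise outside the range of the others, with 590.3 and 554 CPM in deep chandelier cells and at most 467 CPM elsewhere (log2 fold change 1.35, SE 0.19, edgeR adjusted p = 0.000551). Ndufs1, the largest iron-sulfur subunit, had 232 and 155 CPM in deep chandelier cells and overlapped PV basket cells at 173 and 142 CPM (log2 fold change 1.16, SE 0.28, edgeR adjusted p = 0.0124), and its call was lost without animal 11 (0.189) and by voom (0.182).

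Of the 36 complex I subunits, 4 were called higher in deep chandelier cells (Ndufv1, Ndufa8, Ndufs1 and Ndufb5) and 11 lower. Among all genes 12.3% were called higher there and 6.79% lower, and the 4 higher subunits are a share near that background. Ndufa1, a small accessory subunit, had 39.9 CPM in animal 11 and 126 CPM in animal 12, against a lowest value of 130.4 CPM in any other replicate (log2 fold change -1.76, SE 0.36, edgeR adjusted p = 0.00464). Ndufa11 had 31.8 and 88.7 CPM, against 127 CPM or more in every other replicate (log2 fold change -1.85, SE 0.33, edgeR adjusted p = 0.00189). Both deep chandelier replicates were thus below all others for these genes, with animal 11 the lower. Ndufb7 (34.0 and 48.0 CPM; log2 fold change -1.40, SE 0.29, edgeR adjusted p = 0.00481) was also below every other replicate, and Ndufa5 (29.2 and 113 CPM; log2 fold change -1.35, SE 0.42, edgeR adjusted p = 0.0358) overlapped CCK basket cells at 64.1 CPM. The calls of Ndufa1, Ndufa11 and Ndufb7 held in all 16 leave-one-out fits and that of Ndufa5 in 8, and voom called none of them.

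Ndufa9, an accessory subunit near the ubiquinone site, was lowest in interneuron-selective cells, with 51.5 and 23.2 CPM, against 78.5 CPM or more elsewhere (log2 fold change -2.07, SE 0.40, edgeR adjusted p = 0.0068). Ndufb2 had 88.1 and 76.5 CPM there, below all other replicates except deep chandelier animal 11 at 79.1 CPM (log2 fold change -1.92, SE 0.38, edgeR adjusted p = 0.00747). Ndufv3, a small subunit of the NADH-binding module, varied over the types in both directions (edgeR adjusted p = 0.000673 for any difference between types). It had 259, 307, 357 and 302 CPM in long-projecting cells (log2 fold change 1.15, SE 0.16, edgeR adjusted p = 0.000265) and 293 and 323 CPM in upper chandelier cells (log2 fold change 0.97, SE 0.21, edgeR adjusted p = 0.0299), and the 2 ranges overlapped. In interneuron-selective cells Ndufv3 had 98.0 and 76.0 CPM (log2 fold change -1.28, SE 0.25, edgeR adjusted p = 0.00691), within reach of deep chandelier animal 11 at 69.2 CPM. The Ndufv3 call held in all 16 leave-one-out fits in long-projecting cells, in 8 in upper chandelier cells and in 15 in interneuron-selective cells, where Ndufa9 held in 15 and Ndufb2 in 14.

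Long-projecting cells were also higher in Ndufa1 (424 to 568 CPM; log2 fold change 1.15, SE 0.22, edgeR adjusted p = 0.00329), Ndufb2 (361 to 466 CPM; log2 fold change 1.09, SE 0.23, edgeR adjusted p = 0.00605) and Ndufa7 (99.9 to 113 CPM; log2 fold change 0.98, SE 0.21, edgeR adjusted p = 0.00675). Ndufa1 overlapped PV basket cells at 501 CPM. Ndufb2 overlapped them at 406 and 425 CPM, and its highest type mean was in PV basket cells. The Ndufa7 values in the 4 long-projecting animals were above every replicate of other types, the nearest being 88.3 CPM in a CCK basket replicate. In PV basket cells Ndufb3 had 654 and 448 CPM, against at most 386 CPM elsewhere (log2 fold change 1.22, SE 0.29, edgeR adjusted p = 0.0319), a call that held in 8 of 16 leave-one-out fits. CCK basket cells were higher in Ndufa2 (383 and 695 CPM; log2 fold change 1.08, SE 0.20, edgeR adjusted p = 0.00619) and Ndufa13, also known as GRIM-19 (543 and 666 CPM; log2 fold change 1.07, SE 0.18, edgeR adjusted p = 0.00342). Neither CCK basket call held without animal 6, at an edgeR adjusted p of 0.272 for Ndufa2 and 0.071 for Ndufa13. In Martinotti cells Ndufb5 had 227 and 122 CPM (log2 fold change -0.92, SE 0.25, edgeR adjusted p = 0.0448), overlapping CCK basket and interneuron-selective cells, and the call held in 5 of 16 fits.

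Assembly factors, which build complex I without staying in it, were low and variable. Ndufaf1 had 161 CPM in deep chandelier animal 11 and 27.5 CPM in animal 12 (log2 fold change 2.41, SE 0.66, edgeR adjusted p = 0.0224), and the call was lost without animal 11 (edgeR adjusted p = 0.809). Ndufaf4 had 81.4 and 50.1 CPM in deep chandelier cells (log2 fold change 1.52, SE 0.51, edgeR adjusted p = 0.0494), overlapping PV basket cells at 63.3 and 75.2 CPM; this call held in 3 of 16 leave-one-out fits. The 6 factors summed to 294 ± 3.51 CPM in PV basket cells and 279 ± 22.4 CPM in deep chandelier cells, and to between 115 and 203 CPM in the other 5 types.

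In complex II the 2 catalytic subunits were called and the 2 membrane anchors were not. Sdhb, the iron-sulfur subunit, had 578 and 410.2 CPM in deep chandelier cells (log2 fold change 1.08, SE 0.23, edgeR adjusted p = 0.00602) and 432 and 555 CPM in CCK basket cells (log2 fold change 0.91, SE 0.23, edgeR adjusted p = 0.0323). It had 165 and 119 CPM in Martinotti cells (log2 fold change -1.33, SE 0.28, edgeR adjusted p = 0.014), overlapping interneuron-selective cells at 123 and 218 CPM. The deep chandelier call was lost without animal 11 (edgeR adjusted p = 0.123) and the Martinotti call without animal 2 (0.187). The CCK basket call held in 9 of 16 leave-one-out fits and was lost without animal 6 (edgeR adjusted p = 0.316). Sdha, the flavoprotein that oxidizes succinate, averaged 157 ± 35.8 CPM in interneuron-selective cells, the lowest type mean, and was called lower there (edgeR adjusted p = 0.0350). The anchors Sdhc and Sdhd were not called for any difference between types by edgeR, and neither had an unadjusted p under 0.05.

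Of the 8 complex III members, 1 was called higher in deep chandelier cells, Uqcrc2, and 3 lower, Uqcrh, Uqcr10 and Uqcr11 (12.3% and 6.79% of all genes). The 1 higher member is a share near the background. Uqcrc2, core protein 2, had 601 and 410.2 CPM in deep chandelier cells, above the highest other replicate at 317 CPM (log2 fold change 1.59, SE 0.20, edgeR adjusted p = 0.000263), and 116 and 95.6 CPM in Martinotti cells, below every other replicate (log2 fold change -1.36, SE 0.26, edgeR adjusted p = 0.00872; 0.114 without Martinotti animal 2). The deep chandelier call held in every leave-one-out fit, although single libraries ran from 93.7 to 1145 CPM. The other core protein gene, Uqcrc1, was not called there, at 69.2 and 215 CPM. Uqcrh, the acidic hinge protein, was highest in PV basket cells, at 999 and 1142 CPM, against at most 934 CPM elsewhere (log2 fold change 1.22, SE 0.27, edgeR adjusted p = 0.0238). In deep chandelier cells it had 80.6 and 288 CPM, below every other replicate (log2 fold change -1.50, SE 0.34, edgeR adjusted p = 0.00853). Uqcrb, which binds ubiquinone with cytochrome b, had 578 and 565 CPM in upper chandelier cells (log2 fold change 1.05, SE 0.25, edgeR adjusted p = 0.0481), above the other types, PV basket cells being next at 558 and 495 CPM. In interneuron-selective cells it had 139 and 68.1 CPM (log2 fold change -1.97, SE 0.33, edgeR adjusted p = 0.00244), overlapping deep chandelier animal 11 at 96.5 CPM. The Uqcrb call held in all 16 leave-one-out fits in interneuron-selective cells and in 4 in upper chandelier cells, and the Uqcrh call in 14 in PV basket and in 16 in deep chandelier cells.

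Complex IV held the members with the largest excess in PV basket cells. Cox5a, a subunit of the matrix side, had 969 and 909.9 CPM there, against at most 791 CPM in any other replicate (log2 fold change 1.20, SE 0.16, edgeR adjusted p = 0.000972). Cox7b had 1266 and 1277 CPM, against at most 872 CPM (log2 fold change 1.18, SE 0.18, edgeR adjusted p = 0.0024). Neither gene overlapped between PV basket cells and the rest. Cox6c had 1719.6 and 1582 CPM in PV basket cells, against at most 1067 CPM elsewhere (log2 fold change 1.25, SE 0.30, edgeR adjusted p = 0.0311), and Cox7c 2437 and 1698 CPM, against at most 1244 CPM (log2 fold change 1.20, SE 0.27, edgeR adjusted p = 0.0232). Of these 4, each lost its call in at least 1 of the 2 fits that left a single PV basket replicate, with edgeR adjusted p-values up to 0.507.

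Elsewhere in complex IV, Cox6c had 91.0 and 376 CPM in deep chandelier cells, below all other replicates, of which the lowest was 664 CPM in Martinotti cells (log2 fold change -1.80, SE 0.38, edgeR adjusted p = 0.00581). Ndufa4, first described with complex I and now placed with complex IV, had 192 and 611 CPM in interneuron-selective cells (log2 fold change -1.59, SE 0.46, edgeR adjusted p = 0.0413), overlapping CCK basket, Martinotti and deep chandelier cells. Cox6b1, which faces cytochrome c, had 138 and 211 CPM there, below every other replicate (log2 fold change -1.36, SE 0.29, edgeR adjusted p = 0.0115). In CCK basket cells Cox5a had 256 and 279 CPM (log2 fold change -0.80, SE 0.19, edgeR adjusted p = 0.0233), within the range of deep chandelier and interneuron-selective cells. Of 16 leave-one-out fits, Ndufa4 kept its call in 6, Cox6b1 in 15 and Cox5a in CCK basket cells in 13.

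Cox6a2, the heart and muscle isoform of subunit VIa, was present in the basket and chandelier types and near 0 in the rest (edgeR adjusted p = 7.79e-05 for any difference between types). It had 109 and 112 CPM in PV basket cells, 61.8 and 81.4 CPM in upper chandelier cells, 15.9 and 8.89 CPM in deep chandelier cells and 7.53 and 1.88 CPM in CCK basket cells. In long-projecting cells 1 count was found in 1 of 4 animals (0.316 CPM), and Martinotti and interneuron-selective cells had 0 counts, which allow up to 0.362 and 0.968 CPM at 3 counts. The 4 types with several counts did not overlap in their replicates. Pooled over replicates, the PV basket level of 110 CPM (2295 counts) was 1.53 times that of upper chandelier cells (95% counting interval 1.39 to 1.69), 9.64 times that of deep chandelier cells (7.77 to 12.1) and 21.6 times that of CCK basket cells (16.6 to 28.6). It was at least 305-fold higher than in Martinotti cells and at least 114-fold higher than in interneuron-selective cells, against floors of 3 counts per type. These intervals and floors cover counting error only, and the sources do not say whether a count is a molecule or a read; if reads of 1 molecule were counted more than once, the intervals are too narrow and the bounds too high.

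The fitted contrasts called Cox6a2 higher in PV basket cells (edgeR adjusted p = 0.000138), in upper chandelier cells (0.000243) and in deep chandelier cells (0.00399), each in all 16 leave-one-out fits. The deep chandelier call has to be read with the levels: its mean of 12.4 CPM is below the arithmetic mean of the other 6 types, 31.2 CPM, and above their mean on the log scale, which 3 types at or near 0 pull down. With voom the deep chandelier contrast had an adjusted p of 0.196. Across the 16 PV basket libraries Cox6a2 ran from 47.4 to 168 CPM with a median of 109, and in the 5 upper chandelier libraries from 57.3 to 104 CPM. The 4 deep chandelier libraries ran from 0 to 29.1 CPM and the 9 long-projecting libraries reached 0.570 CPM.

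Cox6a1, the other isoform of subunit VIa, whose promoter is shown above, did not follow that order. It had 285 and 281 CPM in PV basket cells, 421 and 456 CPM in upper chandelier cells and 388 to 439 CPM in long-projecting cells, and was lowest in deep chandelier cells at 66.6 and 181 CPM. Cox6a2 therefore made up 28.1 ± 0.542% of the CPM of both isoforms in PV basket cells, 14.0 ± 1.67% in upper chandelier cells, 12.0 ± 10.3% in deep chandelier cells and 1.64 ± 1.55% in CCK basket cells (SD, n = 2 each). The deep chandelier replicates were at 19.3% and 4.69%, 1 above and 1 below both upper chandelier replicates (12.8% and 15.2%). The share is set by counts not divided by transcript length, so only its differences between types are read.

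**Figure D4:**
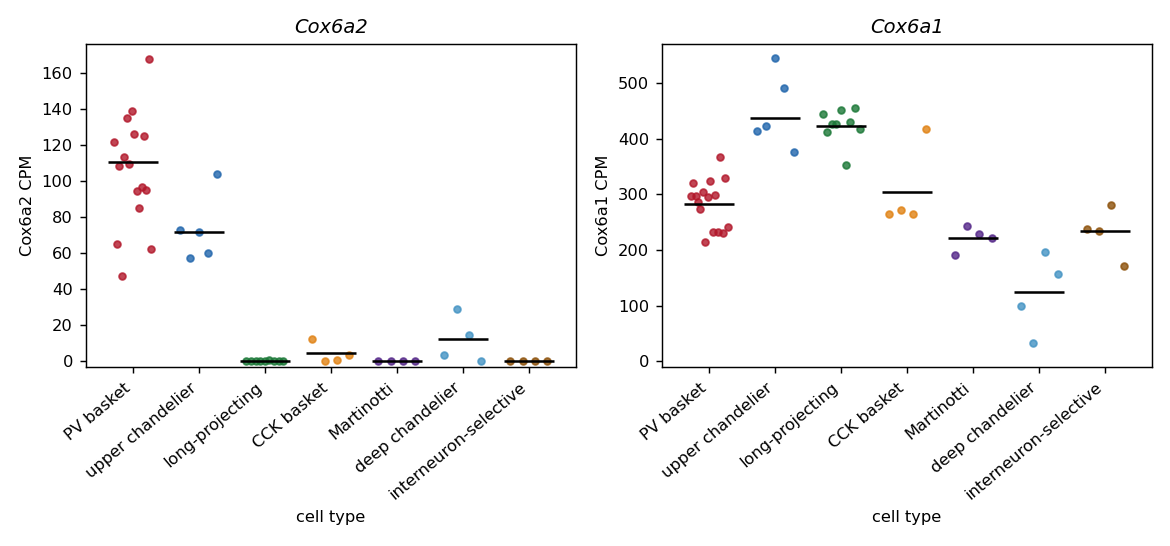
CPM of Cox6a2 (left) and Cox6a1 (right) in every library (points) of the 7 types, with the mean over replicates as a black bar. Cox6a2 is high in all PV basket and upper chandelier libraries and at or near 0 in long-projecting, Martinotti and interneuron-selective libraries, while Cox6a1 is present in all 7 types.

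Other tissue isoforms were rare. Cox8b was found in PV basket cells alone, with 92 counts (5.03 and 3.54 CPM), which is at least 31.0-fold higher than in long-projecting cells and at least 4.57-fold higher than in interneuron-selective cells, the deepest and the shallowest of the types at 0. It made up 1.09 ± 0.259% of the CPM of Cox8a and Cox8b there. It passed the minimum of 50 counts through PV basket cells alone, so its edgeR call, which is among the 14 of that type, is not independent of that minimum and is not read as a test. Cox7a1 was uneven: 22.0 and 0.403 CPM in Martinotti cells, 3.16 and 16.2 CPM in PV basket cells, 0.909 and 8.54 CPM in upper chandelier cells, and 0 in deep chandelier and interneuron-selective cells. Cox4i2, the isoform of subunit IV induced by low oxygen, was at 11.3 CPM in 1 Martinotti animal and at 3.25 and 13.9 CPM in 2 of 4 long-projecting animals and at 0 in all other replicates. Its edgeR call in long-projecting cells (adjusted p = 0.0462) was held in 3 of 16 leave-one-out fits. Cox6b2 reached 8.79 CPM in 1 CCK basket animal and under 2 CPM in all other replicates. Cox7b2 made up 0.708% (PV basket) to 1.74% (CCK basket) of the CPM of Cox7b and Cox7b2.

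Complex V was led by Atp5j, Atp5g1 and the catalytic core. Atp5j, coupling factor 6, differed between types (edgeR adjusted p = 0.000399 for any difference between types). It had 343 and 339 CPM in upper chandelier cells (log2 fold change 1.00, SE 0.20, edgeR adjusted p = 0.0218) and 275, 293, 329 and 286 CPM in long-projecting cells (log2 fold change 0.96, SE 0.16, edgeR adjusted p = 0.00106). In interneuron-selective cells it had 90.6 and 46.4 CPM, below every other replicate, the next being 113 CPM in CCK basket cells (log2 fold change -1.84, SE 0.26, edgeR adjusted p = 0.000866). That call held in every leave-one-out fit, and the one in upper chandelier cells in 9 of 16. Atp5f1, subunit b of the stator, had 39.0 and 52.8 CPM in interneuron-selective cells, overlapping Martinotti cells at 48.8 CPM (log2 fold change -1.29, SE 0.33, edgeR adjusted p = 0.0248), with the call held in 14 fits.

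Atp5g1, Atp5g2 and Atp5g3 encode the same mature subunit c of the membrane rotor. Atp5g1 had 409, 385, 450.0 and 473 CPM in long-projecting cells, above every other replicate, the nearest being 380.1 CPM in PV basket cells (log2 fold change 1.04, SE 0.14, edgeR adjusted p = 0.000234). It made up 22.4 ± 1.96% (n = 4) of the CPM of the 3 genes there, 19.1% in deep chandelier, 15.7% in upper chandelier, 13.7% in Martinotti, 13.4% in PV basket, 11.7% in interneuron-selective and 10.6% in CCK basket cells. Atp5g3 held the main share in every type, from 70.0% in long-projecting to 82.2% in PV basket cells, and Atp5g2 the share from 4.45% in PV basket to 14.2 ± 4.95% in CCK basket cells. Atp5h, subunit d of the stator, had 535 to 585 CPM in long-projecting cells (log2 fold change 0.99, SE 0.19, edgeR adjusted p = 0.00342), overlapping upper chandelier cells at 547 CPM.

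Of the 15 complex V members, 2 were called higher in deep chandelier cells (Atp5a1 and Atp5f1) and 5 lower (Atp5g2, Atp5h, Atp5k, Atp5l and Atp5o). Among all genes 12.3% were called higher there and 6.79% lower, and the 2 higher members are a share near that background. Atp5a1, the alpha subunit, had 2705 and 1716 CPM in deep chandelier cells, the highest type mean, and 672 and 868 CPM in interneuron-selective cells, the lowest (edgeR adjusted p = 0.00122 for any difference between types). Atp5c1, the gamma subunit of the central stalk, had 1258 and 1428 CPM in PV basket cells, above the next replicate at 984 CPM (edgeR adjusted p = 0.00249 for any difference between types). Atp5k, subunit e, had 8.14 and 106 CPM in deep chandelier cells, below all others, which had 179.8 CPM or more (log2 fold change -2.17, SE 0.59, edgeR adjusted p = 0.0213). Atp5l, subunit g, had 74.7 and 273 CPM there, against 283 CPM or more elsewhere (log2 fold change -1.62, SE 0.39, edgeR adjusted p = 0.0109), and lost its call without animal 11 (0.0846).

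In deep chandelier cells the direction followed transcript length. Lengths were taken from the GENCODE M21 transcript of each gene, available for 88 members, with a median of 849.5 bases. The 24 members called lower had lengths of 371 to 1251 bases (median 571.5) and the 11 called higher 680 to 3632 bases (median 1604). Atp5k measures 371 bases, Ndufa1 419, Cox6c 503 and Ndufa11 545, against 1661 for Ndufv1, 1896 for Uqcrc2 and 2471 for Atp5a1. Spearman's rank correlation of the log2 fold change with length was 0.60 over the 88 members and 0.06 over 14423 genes; both are across genes, which are not independent replicates. For members the same value was -0.18 in PV basket cells, -0.11 in upper chandelier cells, -0.28 in long-projecting cells, -0.32 in CCK basket cells, -0.33 in Martinotti cells and -0.02 in interneuron-selective cells. Over all genes the value furthest from 0 was that of long-projecting cells, at -0.17.

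The 44 shorter members had a median log2 fold change of -0.86 in deep chandelier cells and the 44 longer ones 0.21. Among all 603 genes at or under the same length, members included, the median there was -0.54, against -0.04 for longer genes. In PV basket cells shorter and longer members had medians of 0.68 and 0.52, and in long-projecting cells 0.57 and 0.41, where the short genes as a whole stood at 0.62. Both deep chandelier replicates were outside the other types in the summed CPM of shorter over longer members: 0.495 in animal 11 and 0.924 in animal 12, against 1.20 to 1.47 in the 14 other replicates. Single libraries ran from 0.484 to 0.964 in deep chandelier cells and from 1.03 to 1.65 in all other types. The deep chandelier libraries also had a flow cell of their own, and its part in the length pattern was not tested.

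**Figure D5:**
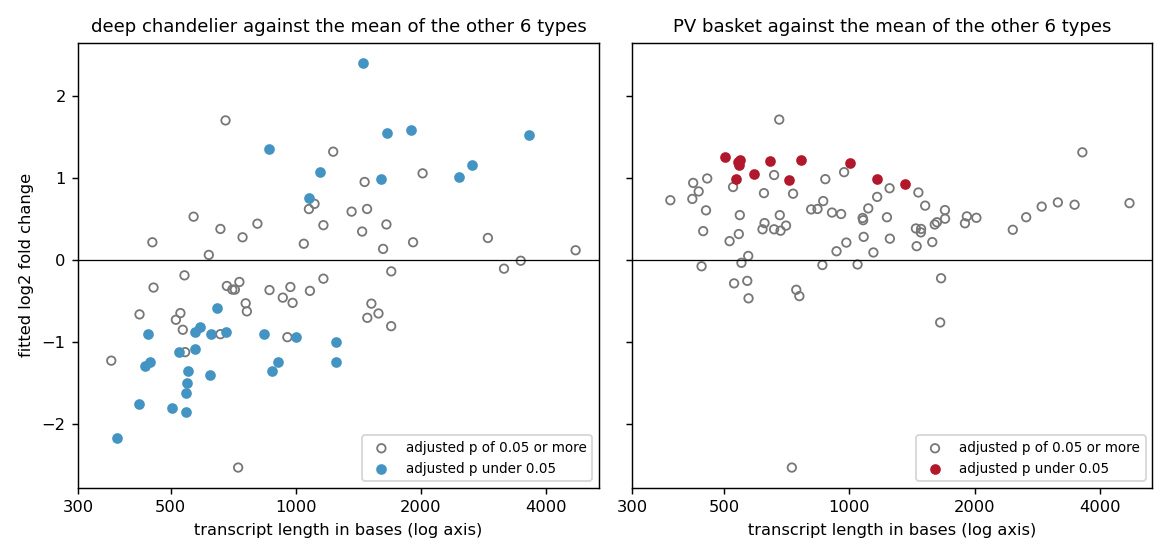
Fitted log2 fold change against transcript length (log axis) for members in deep chandelier cells (left, 86 drawn) and PV basket cells (right, 85 drawn), each against the mean of the other 6 types; filled points have an edgeR adjusted p under 0.05. Points with a size of 3 or more are left out, namely Cox6a2 and Cox7a1 on both sides and Cox8b on the right. Short members lie below 0 and long ones nearer or above 0 in deep chandelier cells, and most lie above 0 at all lengths in PV basket cells.

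PV basket and both chandelier types, the cells known as fast-spiking, were set together against the other 4 types, and 17 members were higher (19.3%, against 5.76% of all genes) and 2 lower (2.27%, against 4.72%). Apart from Cox6a2 and the assembly factor Ndufaf2, whose call held in 2 of 16 leave-one-out fits, the leading members were Atp5j (log2 fold change 1.03, SE 0.15, edgeR adjusted p = 0.00058), Ndufs1 (log2 fold change 1.00, SE 0.21, edgeR adjusted p = 0.00784), Ndufb5 (log2 fold change 0.93, SE 0.16, edgeR adjusted p = 0.00184), Atp5f1, Uqcrc2 and Uqcrfs1, the Rieske iron-sulfur protein of complex III (459.6 and 459.8 CPM in PV basket, 306 and 341 in upper chandelier, 345 and 293 in deep chandelier cells, against 143 to 281 CPM in the other 4 types; log2 fold change 0.89, SE 0.17, edgeR adjusted p = 0.00343). For Uqcrfs1 and Ndufs1 the replicates of the 3 types did not overlap those of the other 4. Those of Atp5j, Ndufb5, Atp5f1 and Uqcrc2 did. Atp5j was at 275 to 329 CPM in long-projecting cells, against 262 and 257 in PV basket cells. Uqcrc2 was at 237 and 185 CPM in upper chandelier cells, against 178 to 238 in long-projecting cells. Lower were Ndufa2 (log2 fold change -0.64, SE 0.16, edgeR adjusted p = 0.0184) and Cox8a, the common isoform of subunit VIII (log2 fold change -0.56, SE 0.14, edgeR adjusted p = 0.0229). Both overlapped the other 4 types. Cox8a had 390 and 387 CPM in PV basket, 510 and 459 in upper chandelier and 99.9 and 206 in deep chandelier cells, against 322 to 587 CPM. Ndufa2 had 240 and 223, 361 and 302, and 155 and 152 CPM in the same order, against 224 to 695 CPM. The Ndufa2 call held in 13 and the Cox8a call in 12 of 16 leave-one-out fits. The 17 higher members had a median length of 1363 bases and the 2 lower ones 561. Spearman's rank correlation with length was 0.46 over the 88 members and 0.04 over all genes, as a description. Of the 3 types taken singly, only deep chandelier cells had a value above 0 for members. It was 0.60 there, -0.18 in PV basket cells and -0.11 in upper chandelier cells. The part of length in these calls was not tested. The total of 19 calls was 12 without PV basket animals 7 and 8.

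Few members were called between 3 pairs of types that share a flow cell or a driver. Set against Martinotti cells, with which they shared a flow cell, interneuron-selective cells had 4 members lower (4.55%, against 1.68% of all genes) and 0 higher (against 1.41%). The 4 were Ndufa9 (log2 fold change -1.82, SE 0.46, edgeR adjusted p = 0.0481), Uqcrb, Atp5a1 (672 and 868 CPM, against 1207 and 1623 CPM in Martinotti cells) and Cox5a. Interneuron-selective cells against CCK basket cells, both marked through Vip-Flp, had 5 lower (5.68%, against 1.02%) and 0 higher (against 0.328%): Ndufa9 (log2 fold change -2.44, SE 0.47, edgeR adjusted p = 0.028), Uqcrb, Sdhb, Ndufa8 and Ndufa13. No member was higher by edgeR, DESeq2 or voom in either pair, and at an unadjusted p under 0.05 there was 1 in the pair with Martinotti cells and 0 in the pair with CCK basket cells. Neither count was stable. The pair with Martinotti cells had 0 calls without either PV basket replicate or any of animals 15 to 18, 1 without animal 13 or 14, 2 without animal 2, 4, 5 or 6 and 8 without deep chandelier animal 11 or 12. The pair with CCK basket cells had 0 without animal 6, 15, 16 or 17 or animals 7 and 8, 1 without animal 4 or animals 9 and 10, 2 without animal 18, 3 without animal 14 and 15 without deep chandelier animal 11 or 12.

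Upper chandelier cells against long-projecting cells, also on 1 flow cell, had 1 member higher (1.14%, against 2.06% of all genes) and 1 lower (1.14%, against 2.02%). The higher one was Cox6a2, as given above. The lower one was Cox7a2l, which joins complexes III and IV into supercomplexes, with 197 and 192 CPM in upper chandelier cells, against 321, 333, 363 and 376 CPM in long-projecting cells (log2 fold change -1.01, SE 0.27, edgeR adjusted p = 0.0472). The groups did not overlap, and the count of 2 fell to 1 in each fit without animal 3, 4, 13, 14, 15, 16, 17 or 18 or without either PV basket replicate.

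Genes that work beside the complexes were counted from lists of textbook members. The share of all genes called in the same comparison is given once for each type above and repeated here. Of 14 regulators of mitochondrial genes, 2 were higher in PV basket cells (2.78% of all genes) and 0 lower, 2 higher and 1 lower in deep chandelier cells (12.3% and 6.79%), 0 and 2 in interneuron-selective cells (5.73% and 4.29%) and 0 and 1 in long-projecting cells (9.71% and 3.4%). Ppargc1a, the coactivator PGC-1alpha, averaged 314 ± 13.6 CPM in PV basket, 146 ± 23.1 in upper chandelier, 127 ± 41.0 in deep chandelier, 97.4 ± 35.1 in CCK basket, 74.2 ± 1.68 in Martinotti, 32.8 ± 25.2 in interneuron-selective and 30.5 ± 9.50 CPM in long-projecting cells. The PV basket contrast had a log2 fold change of 2.09 (SE 0.34, edgeR adjusted p = 0.00394), and that of long-projecting cells was -1.69 (SE 0.34, edgeR adjusted p = 0.00444), in a type with 23 members called higher. Esrrg, the estrogen-related receptor gamma, averaged 201 ± 5.94 CPM in PV basket, 98.8 ± 0.0963 in upper chandelier and 63.0 ± 28.9 CPM in deep chandelier cells, and 22.0 to 36.6 CPM in the other 4 types. Its PV basket contrast had a log2 fold change of 2.29 (SE 0.36, edgeR adjusted p = 0.00304).

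Of 16 citric acid cycle genes, 7 were higher and 0 lower in the 3 fast-spiking types together (5.76% and 4.72% of all genes), and with the same shares of all genes as above 5 and 0 in deep chandelier cells, 2 and 0 in PV basket cells, 0 and 3 in interneuron-selective cells and 0 and 0 in long-projecting cells. Mdh2, mitochondrial malate dehydrogenase, averaged 1055 ± 3.18 CPM in PV basket cells (log2 fold change 1.02, SE 0.21, edgeR adjusted p = 0.0156). Of 11 genes for exchange across the membrane and energy buffering, 8 were higher and 0 lower in the fast-spiking types together (5.76% and 4.72% of all genes). Taken singly, PV basket cells had 1 and 0 (2.78% and 1.11%), upper chandelier cells 1 and 0 (1.56% and 0.341%) and deep chandelier cells 5 and 0 (12.3% and 6.79%). Interneuron-selective cells had 0 higher and 6 lower (5.73% and 4.29%), and long-projecting cells 3 and 1 (9.71% and 3.4%). Mpc2, of the pyruvate carrier, averaged 579 ± 109 CPM in PV basket cells (log2 fold change 1.67, SE 0.27, edgeR adjusted p = 0.00318) and 73.5 ± 40.5 CPM in interneuron-selective cells (log2 fold change -2.02, SE 0.37, edgeR adjusted p = 0.00442). Of 25 assembly and carrier genes, 2 were higher in PV basket and 0 lower, 2 and 4 in interneuron-selective, 5 and 3 in deep chandelier and 2 and 1 in long-projecting cells, against 2.78% and 1.11%, 5.73% and 4.29%, 12.3% and 6.79%, and 9.71% and 3.4% of all genes in those types.

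Of 16 glycolysis genes, 1 was higher and 4 lower in PV basket cells (2.78% and 1.11% of all genes), 8 and 0 in long-projecting cells (9.71% and 3.4%), 1 and 0 in upper chandelier cells (1.56% and 0.341%), 5 and 3 in deep chandelier cells (12.3% and 6.79%) and 2 and 3 in interneuron-selective cells (5.73% and 4.29%). The summed level was 4820 ± 141 CPM in PV basket cells, the second lowest after CCK basket cells (3979 ± 756), and 7779 ± 835 CPM in upper chandelier cells, the highest. Ldha, the lactate dehydrogenase subunit that favours lactate formation, averaged 27.7 ± 8.67 CPM in PV basket cells (log2 fold change -2.22, SE 0.42, edgeR adjusted p = 0.00901) and 263 ± 43.2 CPM in long-projecting cells (log2 fold change 1.70, SE 0.25, edgeR adjusted p = 0.000368). Ribosomal protein genes, another set of short abundant transcripts, were counted in the same way. Of 87 tested, 46 were higher and 0 lower in long-projecting cells (9.71% and 3.4% of all genes), 1 and 5 in PV basket cells (2.78% and 1.11%), 2 and 12 in interneuron-selective cells (5.73% and 4.29%) and 11 and 20 in deep chandelier cells (12.3% and 6.79%). The 11 higher in deep chandelier cells are a share at the background.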

How the data were processed

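Messenger RNA of 584 single neurons was amplified by linear transcription and sequenced in 46 libraries, per the labels' protocols. The authors deposited a table of expected counts per gene and cell, and the submitters' processing notes name Bowtie 0.12.7 and the mouse build mm9; the sources used here give no reason for fractional values. Such values, off a whole number by more than 1e-06, made up 4.07% of the entries above 0 and lay in 1678 genes, none of them a member.

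The expected counts of each replicate were added up and rounded to integers. The test was that of edgeR 4.0.16 under R 4.3.3 (quasi-likelihood, robust, TMM factors 0.836 to 1.19, filter on low counts by type, Benjamini-Hochberg over 15533 genes, 1 spread shared by the 7 types, 9 residual degrees of freedom). The coefficient of variation was 61.7%. DESeq2 1.42.0 and voom in limma 3.58.1 with a weight per type were alternatives. Nothing says that every animal was a separate experiment, so p-values measure the spread between these replicates. Libraries were compared in 190 pairs by the ratio of observed to expected squared differences, which is about 1 under sampling noise alone. In 8 pairs, all of PV basket cells, it was 1.22 to 1.72, under the cutoff of 2. In the other pairs it was 5.38 to 114. Between cells of a library a ratio of the same kind had a median of 1.12 (1.00 to 1.48). Numbers in the library titles did not pair libraries across types (77 pairs, median correlation of deviations -0.0024). All 16 cell barcodes recur across libraries, so a barcode names a cell only within its library.

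Replicate totals ran from 1203737 to 12324142 counts. On counts simulated for the PV basket comparison (15226 genes), 8 of 100 genes changed 2-fold and 86 of 100 changed 8-fold were recovered, and 13 of 15026 unchanged genes were called.

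Named in each comparison were up to 8 called members per direction by size, the 12 smallest p-values of the joint test, and the isoform families; other members were named for their values. Fitted folds of members at 0 in some types depend on the fit and are not printed. The members, lists and tests were chosen with earlier results of these data known.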

Additional observations from a re-analysis of the deposited data

Results flagged for a closer look

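Dixon's test at 95% was applied to the 4 long-projecting replicates, the only group large enough, for 56 named values, and 2 lay apart from the other 3; chance flags about 1 in 20 groups. Cox6a2 was at 0.316 CPM in animal 17, a single count, and at 0 in the other 3 animals. Uqcrh was at 722 CPM in animal 18, against 637 to 645 CPM in the others.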

How the results depend on the processing

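The summed CPM of all members kept its place within 1 SD in each type under the alternatives run (members with at least 200 counts, means over libraries, interneuron-selective library 3 left out). Sums of single complexes did not all do so. The complex V sum of PV basket cells, 11735 ± 72.1 CPM over replicates, had a median over libraries of 11583 CPM. Of 1724 refits of 72 named results, 1403 kept direction and call, 321 kept direction and lost the call, and 0 reversed. Counts of called members moved more. With a weight per type in voom they were 0 in place of 3 for Martinotti, 4 in place of 20 for interneuron-selective, 2 in place of 4 for CCK basket, 54 in place of 14 for PV basket, 8 in place of 4 for upper chandelier, 4 in place of 35 for deep chandelier and 46 in place of 23 for long-projecting cells, and 0, 0 and 6 in the pairs with CCK basket, with Martinotti and of upper chandelier with long-projecting cells (5, 4 and 2). DESeq2 gave 11 for Martinotti and 9 for CCK basket cells, and 14 and 8 in the interneuron-selective pairs with CCK basket and Martinotti cells, where DESeq2's size factors in edgeR gave 0 for the pair with Martinotti cells. With 18 labelled animals the counts were 6 (Martinotti), 9 (CCK basket), 43 (PV basket), 14 and 7 (the same pairs). Without interneuron-selective library 3 they were 1 (upper chandelier), 9 (pair with CCK basket) and 1 (upper chandelier with long-projecting), and with no filter on low counts 1 for that last pair. Library sums with no replicate block gave 7 (Martinotti), 9 (CCK basket), 44 (PV basket), 8 (upper chandelier), 30 (fast-spiking types), 14, 8 and 1 (the 3 pairs). With the title number as a replicate block, the numbers pairing nothing, they gave 13 for long-projecting cells and 1 for upper chandelier against long-projecting cells, 44 for any difference and between 1 and 31 elsewhere. Leaving out each replicate gave 27 to 59 members for any difference, 0 to 8 for Martinotti, 8 to 28 for interneuron-selective, 1 to 10 for CCK basket, 1 to 27 for PV basket, 1 to 8 for upper chandelier, 21 to 44 for deep chandelier, 11 to 38 for long-projecting, 12 to 28 for the fast-spiking types, and 0 to 15, 0 to 8 and 1 to 2 in the 3 pairs. Where 1 replicate of a type remained, it was assumed to vary like the others. The share of all genes called in each refit is not given beside the counts here and above. A shift over all genes therefore cannot be told apart from a shift in the members. The cause of these shifts was not tested. In the simulated PV basket comparison 8 of 100 genes changed 2-fold were called, so a missing call there does not show an equal level.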
